A study of Mus musculus with 8 samples.

Results

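The 10 genes described here encode the machinery by which a cell shows extracellular peptides to CD4+ T cells: H2-Aa, H2-Ab1, H2-Eb1, Cd74, H2-DMa, H2-DMb1, H2-DMb2, H2-Oa, H2-Ob and Ciita. They were chosen by symbol, and all 10 were found among the 32285 genes listed in each library; the rule uses no measured value, though earlier results of these data were known when it was written. Their unique molecular identifier counts (UMIs, 1 for each captured RNA molecule) were summed for each library over the cells of 6 gates (B, Lyve1+ macrophage, Lyve1-low macrophage, dendritic, endothelial and progenitor), which were set from marker genes that hold no class II gene. Levels are given as CPM, that is counts per 1e+06 UMIs of the gate in that library.

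H2-Aa and H2-Ab1 are the alpha and beta chains of H2-A, the class II molecule that C57BL/6 mice display, and H2-Eb1 is the beta chain of H2-E, whose alpha chain this strain does not make, so that H2-E is not displayed although H2-Eb1 is transcribed. Cd74 is the invariant chain, which escorts new class II molecules to the endosome and blocks their groove until it is degraded. There H2-DM, made of H2-DMa with H2-DMb1 or H2-DMb2, exchanges the remaining fragment for antigenic peptide, and H2-DO, made of H2-Oa and H2-Ob, restrains H2-DM. Ciita is the coactivator on which transcription of these genes depends. B cells, macrophages and dendritic cells are the usual class II-positive cells, and in adipose tissue class II on macrophages is known for its part in local T cell responses.

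The cells were the stromal vascular fraction, the non-adipocyte cells left after collagenase digestion, of inguinal white adipose tissue (iWAT) of C57BL/6 mice (so the labels; the study's text gives C57BL/6J males). The 4 Ad-Lib libraries, numbered 1, 3, 5 and 7, came from mice with free access to food, and the 4 TAN libraries, numbered 2, 4, 6 and 8, from mice allowed to feed in 2 windows each night; the comparison asks what the feeding schedule does to these genes in each cell type. The labels name no allele and no agent in either group, and the study's text describes a mildly lower food intake under TAN, so that the schedule and the amount eaten cannot be told apart. The labels give an age of 8 weeks for both groups; the study's text describes an older cohort, so the age is uncertain. The study's text treats each library as an animal replicate.

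The 8 droplet libraries held 25320800 to 37140950 UMIs, and 3717 to 5654 cells a library passed the filters, of which 66.6% in all fell into the 6 gates. The gates held 2638 B cells, 2205 Lyve1+ and 1789 Lyve1-low macrophages, 415 dendritic cells, 7327 endothelial cells and 9831 progenitors, and their defining markers were detected in every library, apart from 1 of the 12 dendritic markers at 0 in Ad-Lib 1 (summed macrophage markers 17509 to 21538 CPM in the Lyve1+ gate and 14049.5 to 17731 in the Lyve1-low gate, dendritic markers in the dendritic gate 1783 to 3449 CPM, B markers in the B gate 9126 to 29122 CPM, endothelial markers in the endothelial gate 9471 to 11268 CPM, progenitor markers in the progenitor gate 29972 to 43347 CPM). B cells were few in 3 Ad-Lib libraries: Ad-Lib 1, 3, 5 and 7 held 15, 684, 76 and 23, against 130, 569, 641 and 500 in TAN 2, 4, 6 and 8. Between 2 and 14 cell barcodes were shared by each of the 28 pairs of libraries. TAN 6 stood apart in that its progenitor gate held T cell markers at 50.6 CPM and B cell markers at 39.3 CPM, and the feeding changes in progenitors are given with and without it.

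In the annotation used (GENCODE M21, GRCm38), 8 of the 10 genes lie on chromosome 17 within 224.3 kb, from base 34092340 (start of H2-Oa) to base 34316674 (end of H2-Eb1). Ciita spans bases 10480059 to 10528418 of chromosome 16, and Cd74 lies on another chromosome. Class II promoters are known for an X box and a Y box, bound by the RFX complex and by NF-Y, which Ciita joins. The RefSeq promoter table (GRCm38.p6, 250 bases before to 50 after each start) held 8 promoters of 7 of the genes. The letters searched were GCAAC, from the X box, and GATTGG, the Y box with its inverted CCAAT, and these runs of letters do not overlap each other. Shares over all promoters count both strands, while positions in the promoters of these genes were found on the gene's strand only. GCAAC was in 35.2% of all 32851 promoters and GATTGG in 16.1%, while GCAAC followed by GATTGG on the same strand, with starts 28 to 34 bases apart, was in 49 (0.149%). This spacing was chosen after the promoters of these genes had been seen, and the 49 include 4 of them, those of H2-Oa, H2-Ob, H2-Aa and H2-Eb1, with starts 32, 29, 32 and 31 bases apart. The 3 stretches printed are shown because they carry the shared order of the paired boxes; each runs 5′ to 3′ on the gene's strand from 110 to 31 bases before the start, and the capitals mark GCAAC and GATTGG.
H2-Aa, chr17:34287854-34287933, minus strand: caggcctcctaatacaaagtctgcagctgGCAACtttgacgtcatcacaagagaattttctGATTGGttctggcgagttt
H2-Eb1, chr17:34305757-34305836, plus strand: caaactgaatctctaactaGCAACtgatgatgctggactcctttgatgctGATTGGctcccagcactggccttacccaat
H2-Ob, chr17:34238795-34238874, plus strand: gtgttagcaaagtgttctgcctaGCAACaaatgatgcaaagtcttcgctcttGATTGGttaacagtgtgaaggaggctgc
On the gene's strand, the promoters of H2-DMb1 and H2-DMb2 and 1 of the 2 promoters of H2-DMa held GATTGG without GCAAC, 62, 91 and 199 bases before the start. A match is a description of the letters and not of binding.

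The chains of H2-A and H2-E and the invariant chain were abundant in the B, dendritic and both macrophage gates and far lower in endothelial cells and progenitors. H2-Aa stood at 7103 ± 572 CPM in Lyve1-low macrophages (mean ± SD, n = 8 libraries, as for all levels in this and the next paragraph), 7084 ± 1424 in dendritic cells, 4204 ± 804 in Lyve1+ macrophages and 3155 ± 656 in B cells, against 34 ± 15.7 in endothelial cells and 19.0 ± 9.39 in progenitors. The first and second gates of that order did not differ beyond their spread (log2 difference −0.09 ± 0.16 SE, adjusted p = 0.679, edgeR). H2-Ab1 was highest in dendritic cells at 7241 ± 1773 CPM, followed by Lyve1-low macrophages at 5834 ± 401, B cells at 3039 ± 360 and Lyve1+ macrophages at 2956 ± 528. H2-Eb1 followed the order of H2-Aa, with 6043 ± 576 CPM in Lyve1-low macrophages, 5906 ± 1313 in dendritic cells, 3056 ± 595 in Lyve1+ macrophages and 2476 ± 295 in B cells. Cd74 ran from 16744 ± 3509 CPM in dendritic cells through 13852 ± 989 in Lyve1-low macrophages and 10167 ± 1340 in B cells to 8526 ± 1066 in Lyve1+ macrophages, and was 67.7 ± 37.8 in endothelial cells and 43.0 ± 26.0 in progenitors. For all 4 genes the step from the lowest class II-positive gate to endothelial cells was called, at 6.66 to 7.22 on the log2 scale, where a difference is called when it reaches 1.5-fold with an adjusted p under 0.05.

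**Figure D1:**
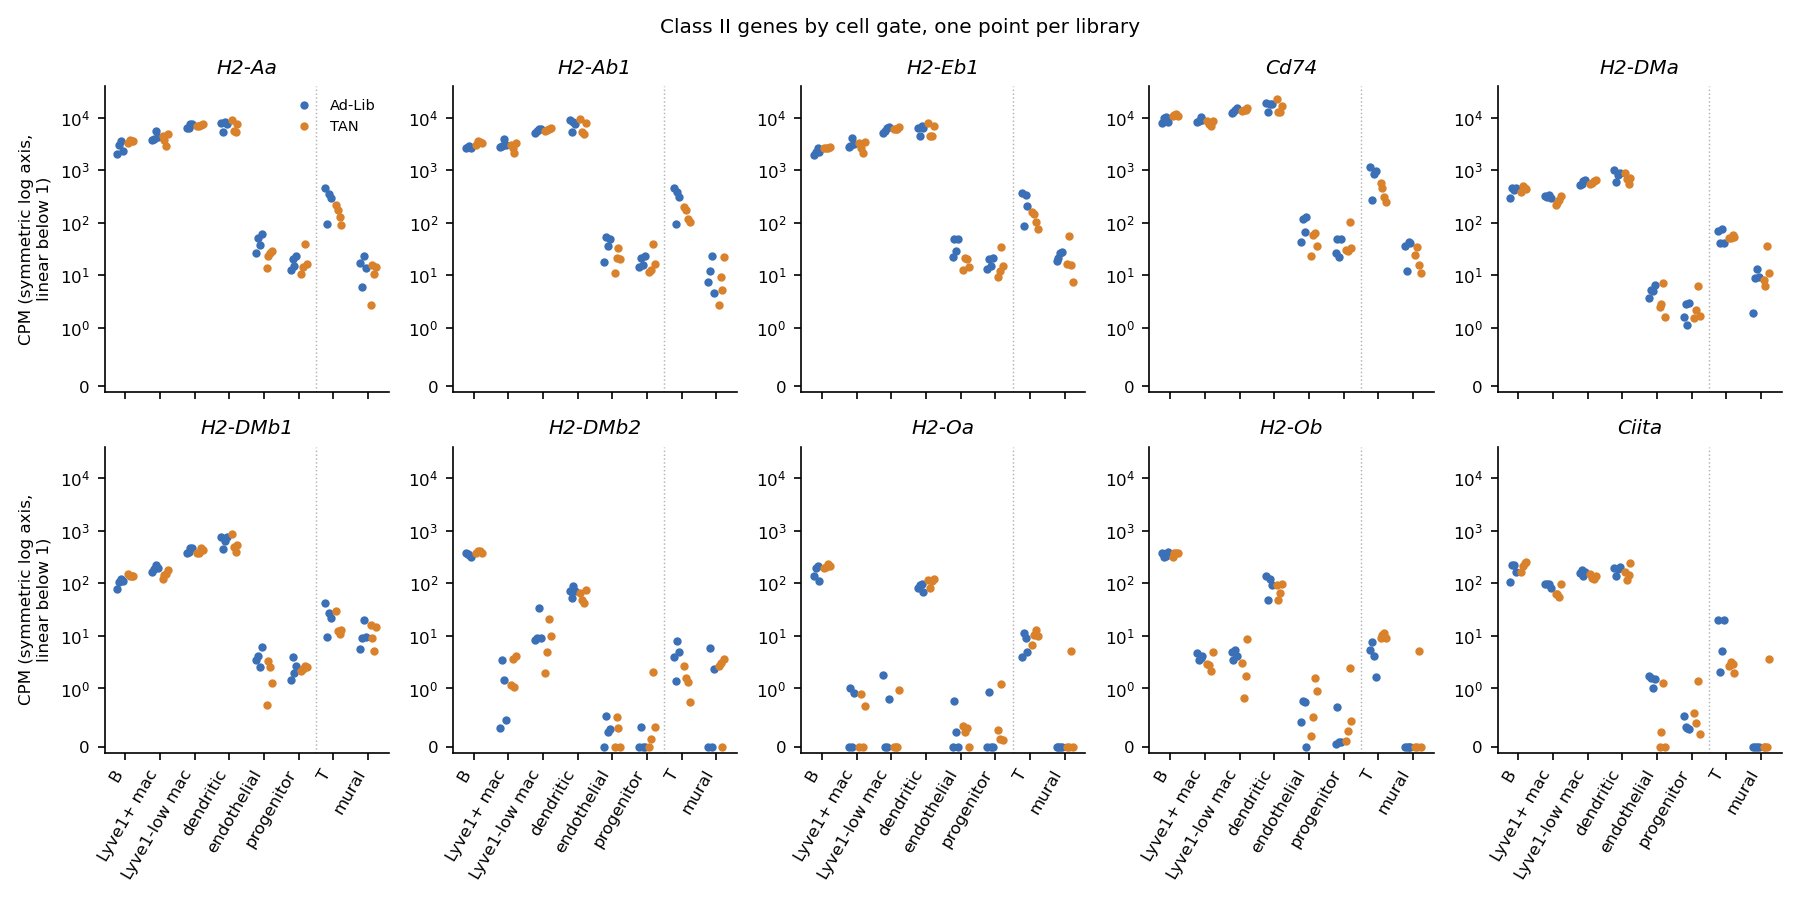
Level of each class II gene in 6 gates and, right of the dotted line, in the T and mural gates that serve as background, in CPM on a symmetric log axis that is linear below 1, with 1 point for each Ad-Lib or TAN library. Cd74 lies at 6884 CPM or above in every library of the B, macrophage and dendritic gates and at 1132 CPM or below elsewhere, while H2-Oa and H2-Ob lie at 48.3 CPM or above in B and dendritic cells and at 13.2 CPM or below elsewhere.

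The genes of peptide exchange divided the class II-positive gates further. H2-DMa, the shared alpha chain of H2-DM, stood at 765 ± 160 CPM in dendritic cells, 593 ± 47.0 in Lyve1-low macrophages, 432 ± 65.3 in B cells and 290 ± 43.6 in Lyve1+ macrophages. No step between neighbours in this order was called. The alternative beta chains had different orders. H2-DMb1 was highest in dendritic cells (614 ± 174 CPM) and had its lowest mean of the 4 gates in B cells (122 ± 23.7, not called against 171 ± 32.6 in Lyve1+ macrophages), whereas H2-DMb2 was highest in B cells (369.99 ± 31.4), lower in dendritic cells (64.2 ± 15.4) and low in macrophages (12.3 ± 10.2 in Lyve1-low and 1.98 ± 1.56 in Lyve1+). Against dendritic cells, the log2 difference of B cells was −2.44 ± 0.14 for H2-DMb1 and 2.41 ± 0.16 for H2-DMb2, both called by edgeR. H2-DMb1 and H2-DMb2 are near-identical neighbours, so the division of their reads by the counting step is uncertain.

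The inhibitor H2-DO was measured in B and dendritic cells and hardly elsewhere. H2-Oa stood at 188 ± 41.4 CPM in B cells and 96.4 ± 18.8 in dendritic cells and at 0.448 ± 0.677 and 0.443 ± 0.481 in Lyve1-low and Lyve1+ macrophages, where it had 6 UMIs over the 8 libraries of each gate. H2-Ob stood at 359 ± 32.6 CPM in B cells, 87.9 ± 32.1 in dendritic cells, 4.04 ± 2.46 in Lyve1-low and 3.62 ± 0.967 in Lyve1+ macrophages. B cells exceeded dendritic cells by 0.81 ± 0.13 (H2-Oa) and 1.97 ± 0.14 (H2-Ob) on the log2 scale. Ciita stood at 202 ± 50.9 CPM in B cells, 174 ± 39.8 in dendritic cells and 146 ± 20.8 in Lyve1-low macrophages, neighbours that did not pass the call (adjusted p = 0.291 and 0.0530), then at 81.0 ± 18.7 in Lyve1+ macrophages and 0.924 ± 0.730 in endothelial cells.

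Across the 50 steps between neighbouring gates in these orders, 25 were called by edgeR. The shares of all genes called, in either direction, were of the same size or larger for several pairs: 14.4% between the macrophage gates, 43.3% for B against dendritic cells, 49.5% for B against Lyve1-low macrophages, 54.8% for B against Lyve1+ macrophages, 40.2% for Lyve1-low macrophages against dendritic cells, 50.4% for Lyve1+ macrophages against dendritic cells, 58.4% for B against endothelial cells, 54.0% and 54.6% for Lyve1+ macrophages against endothelial cells and progenitors, and 48.3% for endothelial cells against progenitors. Against these, 9 of the 10 members were called for B against dendritic cells, 6 lower in B cells and 3 (H2-DMb2, H2-Oa and H2-Ob) higher. Ciita was the member not called in that pair.

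The macrophage gates, split at 1 UMI of Lyve1, differed in class II level. The Lyve1+ gate held more Timd4 (121 against 10.7 CPM) and Folr2 (1157 against 289 CPM), known from resident tissue macrophages, and less Ccr2 (164 against 710.3 CPM), the chemokine receptor of monocyte-derived cells. Lyve1-low macrophages exceeded Lyve1+ macrophages for 8 of 10 members, against 14.4% of all genes called in either direction. The log2 differences, Lyve1+ minus Lyve1-low, were −0.81 ± 0.16 for H2-Aa, −1.03 ± 0.17 for H2-Ab1, −1.03 ± 0.15 for H2-Eb1, −0.75 ± 0.18 for Cd74, −1.09 ± 0.13 for H2-DMa, −1.37 ± 0.12 for H2-DMb1, −2.62 ± 0.49 for H2-DMb2 and −0.92 ± 0.13 for Ciita. H2-Oa and H2-Ob, both at a mean of a few CPM or less in macrophages, were not called. The split depends on detecting 1 transcript: 33 to 110 macrophages a library had a single Lyve1 UMI, and the median depth was 4447 to 5995 UMIs a cell without Lyve1 and 4207 to 7395 with it. B cell markers summed to 340 to 1996 CPM in the Lyve1-low gate and 386 to 587 in the Lyve1+ gate; their part in the difference was not tested.

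Within the dendritic gate, cells led by Ccr7 and Fscn1, known from mature dendritic cells, had less class II RNA than the others. The gate held 163 cells led by Xcr1 or Clec9a (cross-presenting dendritic cells), 116 led by Cd209a, 124 led by Ccr7 or Fscn1 and 12 with no leading marker, and levels are medians over libraries with at least 10 such cells (8, 7 and 4 libraries). Cd74 was at 17021 CPM (15555 to 19981) in Xcr1/Clec9a cells, 22143 CPM (16020 to 25621) in Cd209a cells and 4746 CPM (3421 to 5428) in Ccr7/Fscn1 cells, and the ranges of the last and the others did not overlap. H2-Ab1 was at 890.3 CPM in Ccr7/Fscn1 cells, 8471 in Xcr1/Clec9a and 9093 in Cd209a cells, and H2-Aa was at 2281, 7473 and 8680 CPM in the same order. Of the genes of peptide exchange, 3 were low in Ccr7/Fscn1 cells, with ranges that did not overlap those of the other subsets: H2-DMa was at 96.3 CPM against 954 and 845, H2-DMb1 at 29.4 against 675 and 720.1, and H2-Ob at 4.55 against 132 and 80.8. The ranges of the other two overlapped: H2-DMb2 was at 24.6 CPM (5.08 to 63.8) against 40.3 (25.4 to 76.3) and 85.3 (40.7 to 116), and H2-Oa at 42.4 (15.2 to 68.0) against 109 (61.0 to 195) and 113 (77.5 to 139), where only the Xcr1/Clec9a range overlapped. Ciita was at 36.5 CPM against 186 and 215. No test was made of these subsets, which were cut from the same cells and rest on few markers. TAN 6 held 60 of the 124 Ccr7/Fscn1 cells, and the medians are not given without it.

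**Figure D2:**
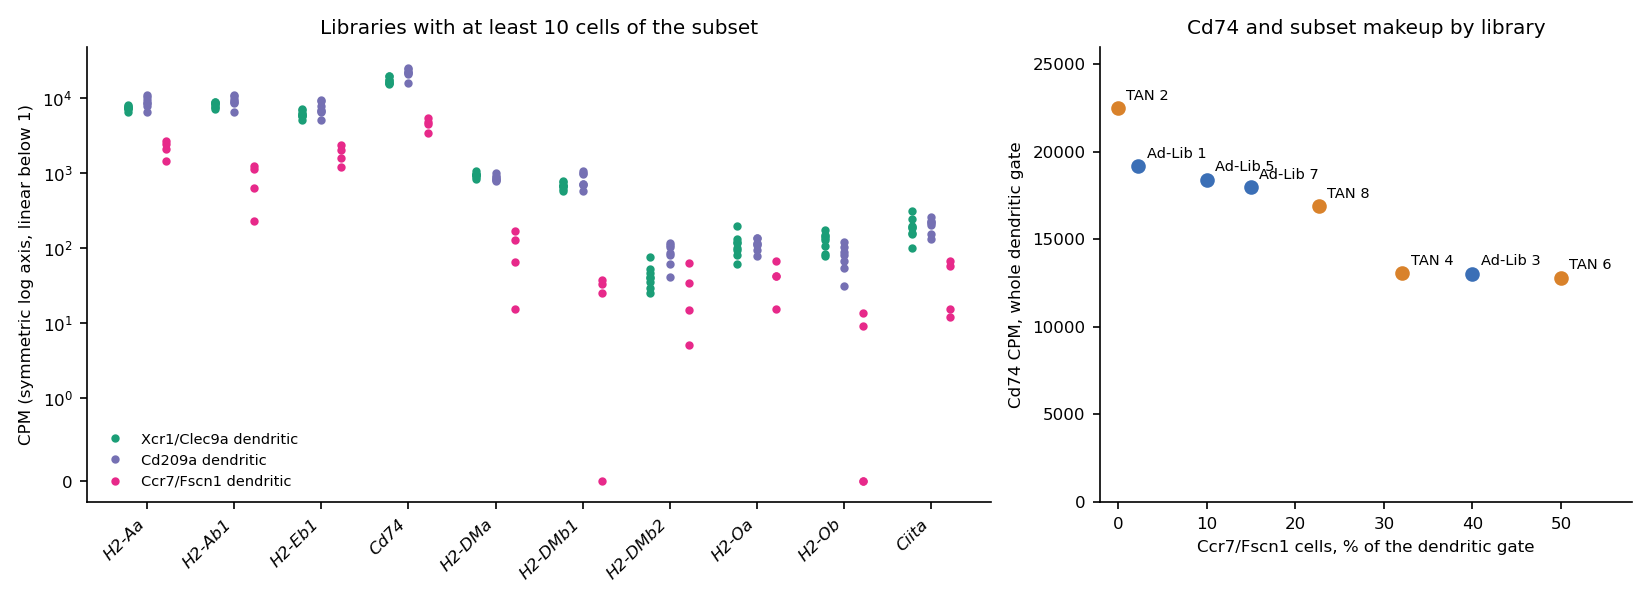
Left, CPM of the class II genes in 3 dendritic subsets (symmetric log axis, linear below 1; points are libraries with at least 10 cells of the subset). Right, Cd74 CPM of the whole dendritic gate against the share of Ccr7/Fscn1 cells, 1 point a library, where the 3 libraries with the largest shares (32.1% to 50%) have the lowest Cd74 (12819 to 13069 CPM).

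The make-up of the gate moved with its class II level. Ccr7/Fscn1 cells were 2.27%, 40%, 10% and 15% of the dendritic gate in Ad-Lib 1, 3, 5 and 7 and 0%, 32.1%, 50% and 22.6% in TAN 2, 4, 6 and 8; the gate's Cd74 was at 19184, 13047, 18412 and 18004 CPM and at 22509.7, 13069, 12819 and 16911 CPM in the same libraries. Both groups held libraries at either end of this range. With only 20 to 120 dendritic cells a library, and 0 Ccr7/Fscn1 cells among 25 in TAN 2, the shares are imprecise, and the part of this make-up in the comparison of the diets was not tested.

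Most class II RNA of a library came from few cells. The 10 genes together took 0.460% to 0.738% of all UMIs. In Ad-Lib libraries a mean of 30.7% of class II UMIs came from Lyve1-low macrophages, 27.5% from Lyve1+ macrophages, 11.1% from dendritic cells and 7.85% (0.527% to 25.6%) from B cells. In TAN libraries B cells gave 24.6% (9.64% to 32.0%), Lyve1-low macrophages 21.5%, dendritic cells 16.5% and Lyve1+ macrophages 16.1%. Endothelial cells gave 0.488% and 0.274% although they were 20.7% and 20.3% of cells. Ad-Lib 3, which had the most B cells of the Ad-Lib libraries, was at 25.6%, inside the TAN range. The groups overlapped, and no test was made of these shares, which move with the number of cells caught of each type; B cells were a mean of 4.22% of Ad-Lib and 9.66% of TAN cells.

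**Figure D3:**
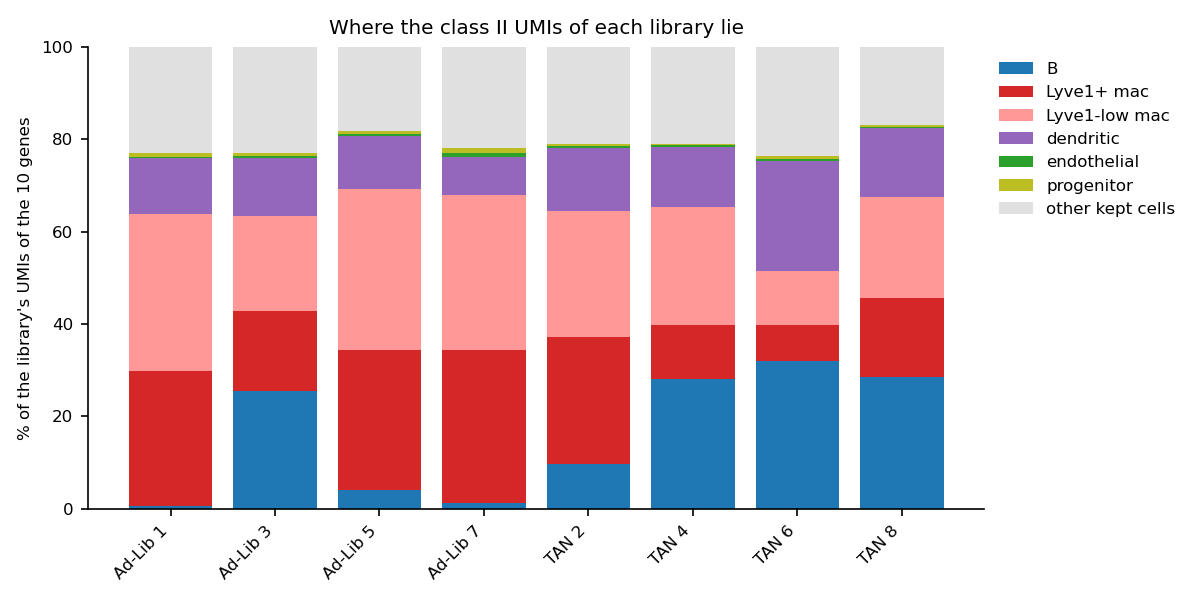
Share of each library's UMIs of the 10 class II genes by gate, in percent, as stacked bars for 8 libraries with the remaining kept cells on top. B cells give 0.527% to 25.6% in Ad-Lib and 9.64% to 32.0% in TAN libraries.

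In the cells that expressed these genes, feeding moved none of them past the test. Tested by edgeR's quasi-likelihood test over all genes, with p-values adjusted over all genes of the gate, 0 of 10 members were called in B cells, 0 of 7 in Lyve1+ macrophages, 0 of 8 in Lyve1-low macrophages and 0 of 10 in dendritic cells, against 0%, 0.372%, 1.20% and 0% of all genes tested (7523, 8874, 7917 and 5228). DESeq2 also called 0 in each of these gates, and 4, 3, 0 and 0 members had an unadjusted p under 0.05. The share of all genes under that unadjusted limit is not given here, so the latter counts are a description only. The 2 calls fell in endothelial cells, given after them. The replicate is the library, and the p-values measure the spread between these libraries.

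**Figure D4:**
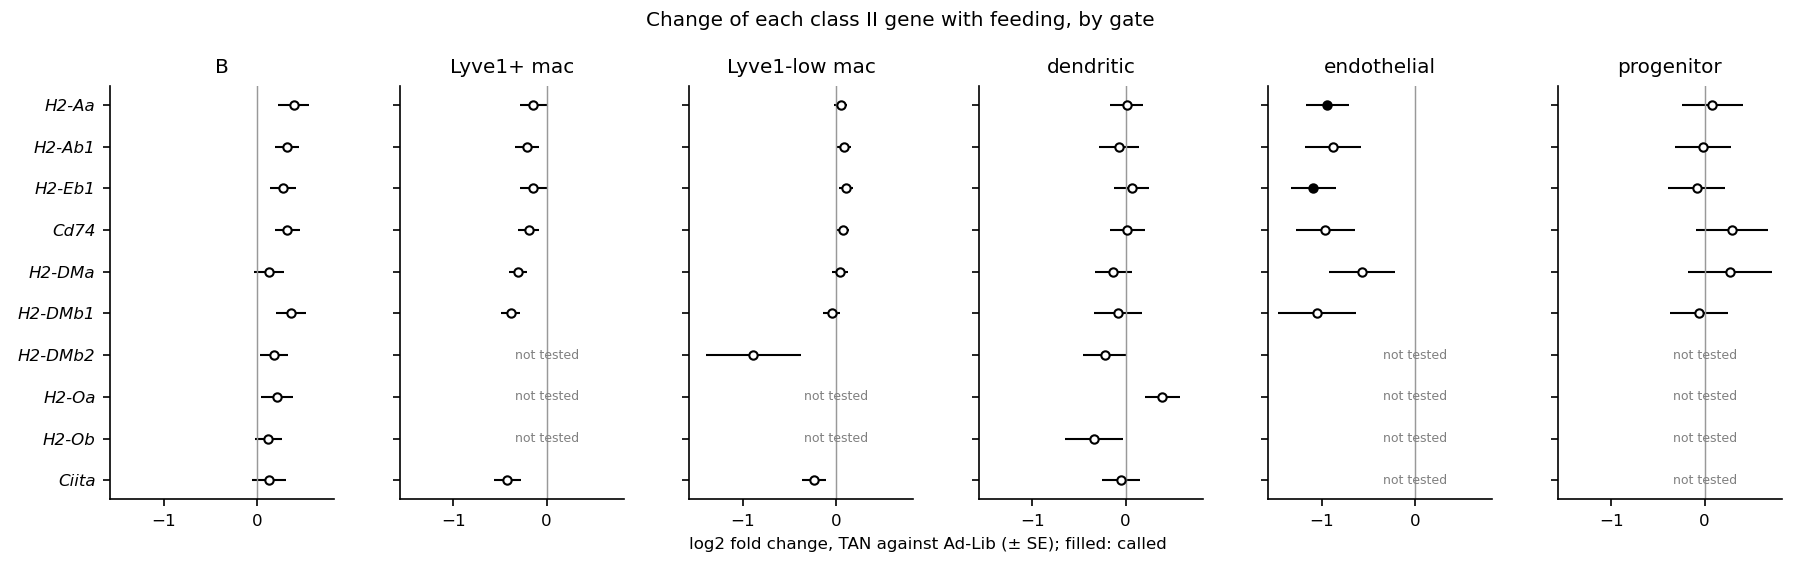
Log2 fold change of each class II gene, TAN against Ad-Lib, in 6 gates, with bars of 1 standard error; filled points were called and genes without a point had too few UMIs to be tested. All 10 points of the B gate lie right of 0 and all 7 of the Lyve1+ gate left of it, although 3 and 4 of these cross 0 under other choices of cells or libraries, and the filled points are H2-Aa and H2-Eb1 in endothelial cells.

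In B cells all 10 members had higher fitted levels under TAN, none past the test, and in B cells with no UMI of macrophage or dendritic markers H2-DMa (−0.074) and H2-Oa (−0.11) turned lower on the log2 scale. H2-Aa was at 2011, 3079, 3548 and 2328 CPM in Ad-Lib 1, 3, 5 and 7 and at 3238, 3811, 3654 and 3569 in TAN 2, 4, 6 and 8, and the groups overlapped. Cd74 was at 8042, 9739.5, 10391 and 8430.2 CPM in Ad-Lib and 10983, 11447, 11682 and 10619 in TAN. Every TAN library lay above every Ad-Lib library for Cd74, as for H2-Ab1 (2659 to 2831 against 3038 to 3580 CPM), H2-Eb1 (1918 to 2594 against 2635 to 2753) and H2-DMb1 (77.3 to 118 against 136 to 148). These are 4 of 10 members whose groups did not overlap, against 3.16% of all genes tested in B cells. The fitted log2 changes were 0.39 ± 0.16 (SE) for H2-Aa, 0.32 ± 0.13 for H2-Ab1, 0.28 ± 0.14 for H2-Eb1, 0.33 ± 0.14 for Cd74 and 0.36 ± 0.16 for H2-DMb1, all under 1.5-fold, with adjusted p = 1.00 in edgeR. H2-DMa, H2-DMb2, H2-Oa, H2-Ob and Ciita had changes of 0.12 to 0.21. The median over the 10 was 0.25, against 0.022 over all genes tested.

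The Ad-Lib sums for B cells rest on few cells in 3 libraries. Ighm was at 22673, 2298, 12414 and 20038 CPM in Ad-Lib 1, 3, 5 and 7 and at 2327 to 4610.0 CPM in TAN. Cells with at least 100 Ighm UMIs numbered 1, 1, 2 and 1 in Ad-Lib and 1, 1, 0 and 1 in TAN. Jchain, the joining chain of secreted antibody and a plasma cell gene, was at 0, 276, 2179 and 4403 CPM in Ad-Lib and 0.849 to 605 in TAN. Without these cells H2-Aa, H2-Ab1, H2-Eb1 and Cd74 together were 1.61%, 1.80%, 2.04% and 1.86% of B cell UMIs in Ad-Lib and 2.04%, 2.17%, 2.15% and 2.02% in TAN, so that Ad-Lib 5 lay within the TAN range. With only the libraries that held at least 30 B cells (2 Ad-Lib, 4 TAN), the log2 changes were 0.11 for H2-Aa, 0.24 for H2-Ab1, 0.16 for Cd74 and 0.31 for H2-DMb1, and −0.038 for Ciita. Both of these alternatives were chosen after the data were seen.

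In Lyve1+ macrophages the 7 tested members had lower fitted levels under TAN, none past the test, but the direction did not hold for 4 of them. In cells with no UMI of B or dendritic markers the log2 changes were 0.24 for H2-Aa, 0.052 for H2-Ab1, 0.022 for H2-Eb1 and 0.070 for Cd74, and leaving out TAN 6 gave 0.014 for H2-Aa and 0.0075 for H2-Eb1. The genes nearest to it were H2-DMb1, H2-DMa and Ciita. H2-DMb1 was at 164, 186, 223 and 199 CPM in Ad-Lib and 120.3, 144, 153 and 179 in TAN, with a log2 change of −0.38 ± 0.10 (adjusted p = 0.111, edgeR). H2-DMa was at 299.5 to 342 CPM in Ad-Lib and 218 to 317 in TAN (−0.31 ± 0.10, adjusted p = 0.182). Ciita was at 96.1, 96.4, 96.6 and 82.1 CPM in Ad-Lib and 61.9, 62.1, 54.3 and 98.4 in TAN. TAN 8 thus lay with the Ad-Lib libraries, and the log2 change of −0.42 ± 0.15 (adjusted p = 0.260) became −0.61 and passed the test when TAN 8 was left out (adjusted p = 0.0474). H2-Aa and Cd74 had fitted changes of −0.14 ± 0.15 and −0.19 ± 0.11. The groups overlapped for all 7 members, where 4.41% of genes did not.

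In Lyve1-low macrophages the class II chains and the invariant chain differed between the diets by at most 0.10 on the log2 scale. Cd74 was at 12327, 12612, 14222 and 15044 CPM in Ad-Lib and 13594, 13925, 14099.9 and 14992 in TAN, a fitted log2 change of 0.07 ± 0.07. H2-Aa, H2-Ab1 and H2-Eb1 had changes of 0.05 ± 0.07, 0.08 ± 0.07 and 0.10 ± 0.08. Ciita was at 155, 181, 135 and 167 CPM in Ad-Lib and 151, 126, 121 and 135 in TAN (−0.24 ± 0.13, adjusted p = 0.432, edgeR). H2-DMb2 was at 8.48, 9.08, 33.6 and 9.02 CPM in Ad-Lib and 1.999, 4.998, 21.1 and 9.80 in TAN, with 129 UMIs in all, and its change of −0.89 ± 0.51 did not pass (adjusted p = 0.461). It was −0.15 without Ad-Lib 5, −0.56 without TAN 2 and −1.38 without TAN 6. H2-DMa and H2-DMb1 had changes of 0.04 ± 0.09 and −0.05 ± 0.09, and H2-Oa and H2-Ob had too few UMIs to be tested. The groups overlapped for all 8 members tested, where 6.39% of genes did not.

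In dendritic cells H2-Aa, H2-Eb1 and Cd74 had fitted changes of 0.01 ± 0.18, 0.06 ± 0.19 and 0.02 ± 0.19 on the log2 scale, with no stable direction. With at most 10000 UMIs a cell the changes were −0.37, −0.23 and −0.56, leaving out single libraries moved each across 0, and the mean CPM of Cd74 was 17162 in Ad-Lib and 16327 in TAN. H2-Oa was at 80.6, 93.2, 96.0 and 68.2 CPM in Ad-Lib and 118, 83.2, 113 and 119 in TAN (0.40 ± 0.19, unadjusted p = 0.0606, adjusted p = 0.953, edgeR), and its partner H2-Ob had a change of −0.34 ± 0.31. TAN 4 was the library that overlapped with Ad-Lib for H2-Oa. The other 5 members had changes between −0.23 (H2-DMb2) and −0.05 (Ciita). None of the 10 members had groups that did not overlap, against 2.51% of genes. With 20 to 120 dendritic cells a library, the limits of H2-Aa and Cd74 are wide, at a standard error of 0.18 and 0.19.

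In endothelial cells 2 of the 6 members tested were called by edgeR, both lower under TAN, against 2.19% of 10720 genes called in either direction. An unadjusted p under 0.05 was found for 5 of the 6, and DESeq2 called 2. The shares of all genes at these other limits are not given here, so these counts are a description only. H2-Eb1 was at 22.2, 48.3, 29.0 and 50.1 CPM in Ad-Lib 1, 3, 5 and 7 and at 12.8, 21.2, 20.3 and 14.4 in TAN 2, 4, 6 and 8, and every TAN library lay below every Ad-Lib library, as for 9.73% of genes in either direction. It fell by 1.09 ± 0.24 on the log2 scale (adjusted p = 0.0200, edgeR). H2-Aa was at 26.9, 52.2, 38.4 and 61.1 CPM in Ad-Lib and 13.7, 23.8, 27.1 and 28.5 in TAN, with Ad-Lib 1 inside the TAN range, and fell by 0.94 ± 0.23 (adjusted p = 0.0335). Cd74, at 43.3, 119, 67.6 and 129 CPM against 23.6, 59.4, 62.9 and 36.8, had a change of −0.96 ± 0.31 that did not pass (adjusted p = 0.108). H2-Ab1 (−0.88 ± 0.30, adjusted p = 0.129), H2-DMb1 (−1.05 ± 0.42, adjusted p = 0.190) and H2-DMa (−0.57 ± 0.35, adjusted p = 0.447) did not pass either. The median over the 6 members was −0.95, against −0.0047 over all genes. H2-DMb2, H2-Oa, H2-Ob and Ciita had 7 to 28 UMIs over the 8 libraries and were not tested.

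The calls in endothelial cells did not hold in every subset of the libraries. Without Ad-Lib 1 there were 4 calls, without Ad-Lib 3, Ad-Lib 7 or TAN 2 there were 0, and without TAN 4, TAN 6 or TAN 8 there was 1; the fitted changes of H2-Aa stayed between −1.12 and −0.74 and those of H2-Eb1 between −1.28 and −0.91. In endothelial cells with no UMI of a B, macrophage or dendritic marker, a choice that drops most of the gate (such a marker was present in 55.6% to 70.8% of the cells with under 5 class II UMIs), 0 of 4 members tested were called, with log2 changes of −0.95 for H2-Aa (adjusted p = 0.145) and −0.99 for H2-Eb1 (adjusted p = 0.0509).

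The T and mural gates serve as background. Mean levels in endothelial cells were 44.7 ± 15.1 CPM (Ad-Lib) and 23.3 ± 6.66 (TAN) for H2-Aa (SD, n = 4). For H2-Eb1 they were 37.4 ± 13.9 and 17.2 ± 4.19, and for Cd74 89.8 ± 41.0 and 45.7 ± 18.7. These lay below the means of the T gate, where the same genes were also lower under TAN. In the T gate H2-Oa (7.37 and 10.0 CPM) and H2-Ob (4.65 and 10.2) had higher means under TAN. Mean levels in the T gate were 301 ± 151 CPM (Ad-Lib) and 152 ± 54.9 (TAN) for H2-Aa, 252 ± 132 and 121 ± 38.3 for H2-Eb1, and 804 ± 375 and 399 ± 151 for Cd74 (SD, n = 4), with overlapping groups. In the mural gate they were 15.0 ± 7.11 and 10.8 ± 5.87 CPM for H2-Aa and 23.6 ± 4.38 and 23.8 ± 21.7 for H2-Eb1. The part of this background in the endothelial calls was not tested. With each cell thinned to 2000 UMIs, which dropped 679 of the 3595 endothelial cells of Ad-Lib and 650 of the 3732 of TAN, Cd74 had a UMI in 5.26% to 8.69% of endothelial cells in Ad-Lib and 3.96% to 5.84% in TAN. In the T gate, where few cells should carry the gene, the thinned share was 7.80% to 12.2% in Ad-Lib and 6.57% to 8.95% in TAN, and in the mural gate 3.83% to 7.56% and 2.34% to 4.68%. In the T gate 26 cells of Ad-Lib and 81 of TAN had at least 5 summed UMIs of H2-Aa, H2-Ab1, H2-Eb1 and Cd74, and they held 84.6% to 96.7% of the summed UMIs of the 4 genes. The median depths were 3627 to 4049 UMIs a cell (endothelial), 4613 to 5821 (T) and 4157 to 5805 (mural). The endothelial Cd74 share was below that of the T gate in each of the 8 libraries and above that of the mural gate in 6 of 8 (means 7.18% against 5.84% in Ad-Lib and 4.89% against 3.59% in TAN). For the called H2-Eb1 the mean thinned share was 4.32% in endothelial, 4.41% in T and 5.23% in mural cells of Ad-Lib and 2.50%, 3.14% and 4.07% in TAN, lowest in endothelial cells. For the called H2-Aa it was 5.06%, 5.45% and 3.50% in Ad-Lib and 3.31%, 3.46% and 2.24% in TAN. Whether the UMIs of H2-Eb1, H2-Aa and Cd74 in the endothelial gate came from its own cells or from background was not tested. Without thinning the mean endothelial share was 11.5%.

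A few endothelial cells held much of the gate's class II RNA. Cells with at least 5 summed UMIs of H2-Aa, H2-Ab1, H2-Eb1 and Cd74 numbered 8, 10, 5 and 10 in Ad-Lib and 7, 6, 13 and 4 in TAN, that is 0.543% to 1.72% of the gate, and they held 23.6%, 80.7%, 29.97% and 68.1% of its UMIs of the 4 genes in Ad-Lib and 16.0%, 61.6%, 56.1% and 12.4% in TAN. The summed level of the 4 genes was 110, 273, 171 and 289 CPM in Ad-Lib and 61.2, 125, 143 and 101 in TAN. Without these cells it was 85.3, 53.7, 121 and 94.2 CPM in Ad-Lib and 51.9, 48.9, 64.4 and 88.6 in TAN. The groups overlapped both with and without these cells, which were picked by their class II UMIs, so the values are a description only. A marker of B cells, macrophages or dendritic cells was present in 80.0% to 87.5% (Ad-Lib) and 76.9% to 100% (TAN) of these cells and in 62.9% to 70.8% and 55.6% to 68.8% of the remaining ones. Macrophage markers in the endothelial gate, of which 0 or 1 of 10 were at 0 in a library, summed to 87.9 to 150.4 CPM in Ad-Lib and 57.1 to 102 in TAN, with means of 115 and 76.2 CPM, and so were lower on average under TAN, like the called genes. B cell markers summed to 8.18 to 16.8 and 7.17 to 27.7 CPM, with 3 to 8 and 1 to 6 of 10 at 0, and dendritic markers to 245 to 275 and 207 to 245 CPM. Their part in the result was not tested.

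**Figure D5:**
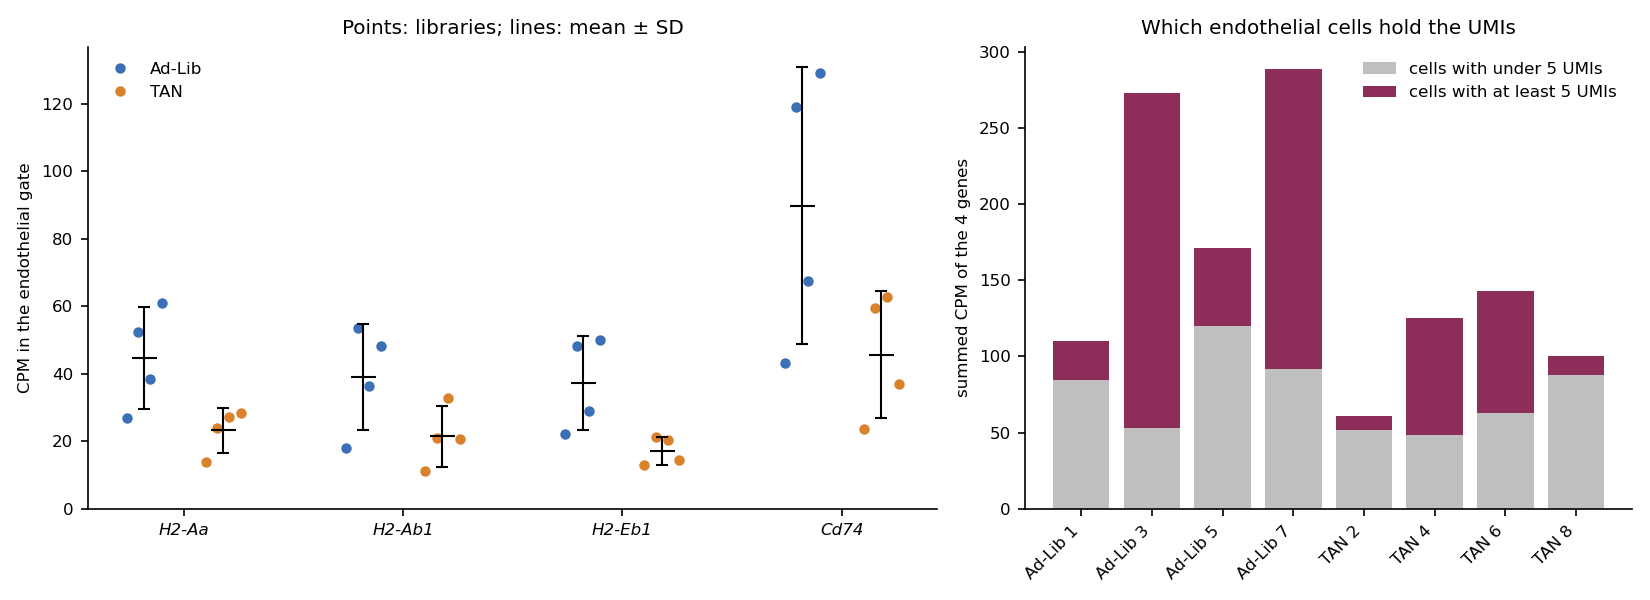
Left, CPM of H2-Aa, H2-Ab1, H2-Eb1 and Cd74 in the endothelial gate, 1 point a library, with the mean and SD of 4 libraries in black. Right, the summed CPM of the 4 genes by library, divided between cells with under 5 and with at least 5 of their UMIs. The totals and the grey parts both overlap between the groups, and Ad-Lib 3 and Ad-Lib 7, at 273 and 289 CPM, have the largest parts from cells with at least 5.

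Among endothelial subsets, cells led by Gpihbp1, Rgcc or Car4 (capillary markers) made up 6868 of 7327 and so set the level of the gate, with Cd74 at a median of 52.2 CPM over 8 libraries. The 91 cells led by Ackr1, Selp or Vwf (venous markers) had Cd74 at 22.1 to 1007 CPM in 5 libraries with at least 10 of them, and the 190 arterial-marker cells at 0 to 92.2 CPM.

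In progenitors, the fibroblast-like cells from which adipocytes form, 0 of 6 members tested were called by edgeR or DESeq2, none had an unadjusted p under 0.05, and 0.570% of 12273 genes were called. Cd74 was at 27.1, 49.9, 22.4 and 49.9 CPM in Ad-Lib and 30.05, 28.9, 102 and 33.7 in TAN, so that TAN 6 lay far above the others. The log2 change of Cd74 was 0.29 ± 0.38 with TAN 6 and −0.28 without it. H2-Aa, H2-Ab1, H2-Eb1, H2-DMa and H2-DMb1 had changes of −0.08 to 0.27 with TAN 6. Without it they were −0.38 for H2-Aa, −0.47 for H2-Ab1, −0.53 for H2-Eb1, −0.27 for H2-DMa and −0.08 for H2-DMb1. In TAN 6, 35 of 804 progenitors (4.35%) had at least 5 UMIs of the 4 genes and held 69.7% of them. Its summed level of the 4 genes was 216 CPM, against 61.7 to 117 CPM in the other 7 libraries. Without such cells in any library TAN 6 was still the highest, at 66.8 CPM against 23.6 to 60.5. The thinned share of progenitors with a Cd74 UMI was 2.02% to 4.42% at 2000 UMIs, below that of the T gate in each library. At 1000 UMIs, which keeps shallower cells, it was 7.87% in TAN 6, above the T gate of that library (5.74%), and 1.12% to 3.03% in the other 7 libraries, below the T gate (4.0003% to 7.95%). The groups overlapped for all 6 members, against 6.89% of genes that did not.

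Whether the change with feeding differed between the gates was tested for each gene in a joint model with the library as a block. None of the 10 members passed (lowest adjusted p = 0.138, H2-Eb1, edgeR), against 1.23% of 12420 genes. At an unadjusted p under 0.05 there were 7, a count given without the share of all genes under that limit. Leaving out TAN 6 gave 1 call, H2-Eb1. The calls in endothelial cells are therefore not shown to be particular to that gate.

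The other genes of antigen presentation were taken from lists of 8 genes of peptide processing, 7 of the class II transcription complex, 6 of surface turnover and costimulation and 10 of class I presentation. The 3 genes called were all of the turnover and costimulation list and were lower under TAN. They were 1 of 6 tested in Lyve1+ macrophages, 1 of 6 in Lyve1-low macrophages and 1 of 3 in progenitors, against 0.372%, 1.20% and 0.570% of all genes called in these gates. March1, the ubiquitin ligase that removes class II from the surface, fell by 0.61 ± 0.13 in Lyve1+ macrophages, from a mean of 137 to 90.8 CPM (adjusted p = 0.0454, edgeR). Cd40, a receptor for T cell help, fell by 0.99 ± 0.25 in Lyve1-low macrophages, from 24.1 to 11.9 CPM (adjusted p = 0.0439). Cd80, a ligand of CD28, fell by 1.16 ± 0.24 in progenitors, from 3.02 to 1.37 CPM (adjusted p = 0.0494). The lists of peptide processing, of the transcription complex (Rfx5, Rfxap, Rfxank, Nfya, Nfyb, Nfyc and Creb1) and of class I presentation had 0 genes called by edgeR in each of the 6 gates. They had 0 to 5 genes a list and gate at an unadjusted p under 0.05, given without the share of all genes. The 5 were class I genes in endothelial cells, where all 10 had lower fitted levels under TAN with a median log2 change of −0.22, beside −0.95 for the class II members.

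Over the 48 sums of gate and library, the mean log2(CPM + 1) of H2-Aa, H2-Ab1, H2-Eb1 and Cd74 had a Pearson correlation of 0.996 with H2-DMa, 0.986 with H2-DMb1 and 0.984 with Ciita, but of 0.675 with H2-DMb2, 0.640 with H2-Ob and 0.496 with H2-Oa. The genes outside the list with the most similar pattern were Cd48 (0.993), Ctss (0.992), Actr3 (0.990), Cd83 (0.989) and Ly86 (0.988). The sums share libraries and fall into expressing and non-expressing gates, so the values describe the order of the gates and carry no p.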

How the data were processed

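Single-cell RNA-seq (10x Genomics 3′ v3 chemistry) of stromal vascular cells gave 8 libraries, 4 for each feeding group. The deposited values are raw UMI counts per gene and barcode, made by the authors with Cell Ranger (version 6.0.1 per the file headers, 3.0.2 in the submitters' processing notes) on mm10 (GRCm38); nothing was normalized before deposit. The authors' own cell-level testing was not used.

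Cells with 700 to 30000 UMIs, 200 to 8000 genes and at most 10% mitochondrial UMIs were kept. A cell entered a gate when at least 4 (dendritic, T, mural) or 5 (other gates) of its markers were detected, at least 2 times as many as of any other lineage, with under 5 adipocyte markers; no doublet caller was run, so doublets were limited by this ratio and the UMI limit alone. Macrophages with at least 1 Lyve1 UMI were called Lyve1+. Counts were summed per library and gate (at least 10 cells) and tested with edgeR 4.0.16 (R 4.3.3; quasi-likelihood test, TMM, filter on low counts, Benjamini-Hochberg adjustment over all genes of the gate). A gene was called at an adjusted p under 0.05 and 1.5-fold; the joint test across gates used the adjusted p alone, with the library as a block. The study's text treats the libraries as separate animals, which the labels do not state; p-values measure the spread between these libraries. Shares of cells were taken after thinning each cell to 2000 UMIs.

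Alternatives were DESeq2 1.42.0 (size factors; Wald test), no low-count filter, other limits on cells, and leaving out each library; 2 more (libraries with at least 30 B cells; B cells with under 100 Ighm UMIs) were added after seeing the data. The members, markers and lists were chosen with earlier results of these data known. By the rule for named genes, the text names the members, the called genes of 4 other lists (only the turnover and costimulation list had any) and, as a description, the 5 genes most correlated with the class II chains and Cd74. Outside this rule, gate and subset markers, Timd4, Folr2, Ccr2, Ighm and Jchain are named to describe the gates, after their values were seen, and the transcription complex list is spelled out. The statistics were tested on simulated data. Python 3.11.15, numpy 2.4.6, scipy 1.17.1, pandas 2.3.3 and matplotlib 3.10.9 were used.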

Additional observations from a re-analysis of the deposited data

Results flagged for a closer look

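Of 98 groups of 4 libraries looked at (a member, gate and feeding group with at least 20 UMIs), 7 held a library whose distance from the nearest of the others exceeded Dixon's 95% limit for its share of the group's range; chance alone marks about 1 in 20 groups. The cause of each was not tested. Progenitors of TAN 6 held 3 of them: Cd74 stood at 102.3 CPM against 28.9 to 33.7 in the other TAN libraries, H2-Ab1 at 38.9 CPM against 11.7 to 16.1, and H2-DMa at 6.255 CPM against 1.56 to 2.16. T cell and B cell markers were also highest among the progenitor gates in TAN 6, at 50.6 and 39.3 CPM. Ciita in Lyve1+ macrophages of Ad-Lib 7 stood at 82.1 CPM, below 96.1 to 96.6 in the other Ad-Lib libraries. H2-DMb2 in Lyve1-low macrophages of Ad-Lib 5 stood at 33.6 CPM against 8.48 to 9.08, and its reads cannot be told apart with certainty from those of H2-DMb1. H2-Ob in B cells of TAN 2 stood at 320.6 CPM, below 376 to 384. Ciita in progenitors of Ad-Lib 1 stood at 0.527 CPM against 0.307 to 0.343, a level of single UMIs.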

How the results depend on the processing

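The counts of called members were 0 under every alternative run in B cells, Lyve1-low macrophages, dendritic cells and progenitors. In endothelial cells the count of 2 became 4 without the low-count filter and 0 in cells with no marker UMI of the other antigen-presenting gates, and ran from 0 to 4 as each library was left out. That range was 0 to 1 in Lyve1+ macrophages and 0 to 1 for the joint test. The mean endothelial share of cells with a Cd74 UMI, 6.03%, was 3.83% at 1000 UMIs and 11.5% without thinning, which changes the depth by construction. For the other reversals the cause was not tested. In cells with no such marker UMI, log2 changes turned to −0.074 (H2-DMa) and −0.11 (H2-Oa) in B cells, to 0.24 (H2-Aa), 0.052 (H2-Ab1), 0.022 (H2-Eb1) and 0.070 (Cd74) in Lyve1+ macrophages, and to −0.14 (H2-Aa) and −0.11 (Cd74) in progenitors. With at most 10000 UMIs a cell they were −0.37 (H2-Aa), −0.23 (H2-Eb1) and −0.56 (Cd74) in dendritic cells and 0.66 (H2-Ab1) and 0.43 (H2-Eb1) in progenitors. Requiring 1 marker more per gate gave 0.0043 (Ciita) in dendritic cells and −0.027 (H2-Aa) in progenitors, where H2-Ab1 was 0.041 by DESeq2 and 0.013 at 20% mitochondrial UMIs. With at least 30 B cells a library, Ciita was −0.038. Leaving out each library crossed 0 in Lyve1+ macrophages for H2-Aa (−0.25 to 0.014) and H2-Eb1 (−0.26 to 0.0075). In dendritic cells it did so for H2-Aa (−0.19 to 0.11), H2-Ab1 (−0.30 to 0.055), H2-Eb1 (−0.15 to 0.17), Cd74 (−0.22 to 0.12), H2-DMb1 (−0.41 to 0.055) and Ciita (−0.22 to 0.077). In progenitors it did so for H2-Aa (−0.38 to 0.31), H2-Ab1 (−0.47 to 0.16), H2-Eb1 (−0.53 to 0.13), Cd74 (−0.28 to 0.49), H2-DMa (−0.27 to 0.48) and H2-DMb1 (−0.27 to 0.25). Of the single-gene values 318 under other settings and 333 with a library left out kept direction and call. Cells without markers of other gates could not be fitted in the dendritic gate, and for the joint test only DESeq2's size factors and leaving out libraries were run. No paired analysis was possible because the replicate numbers of the groups (odd in Ad-Lib, even in TAN) are not shared. The number of cells limits the precision in B cells of 3 Ad-Lib libraries and in dendritic cells throughout.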

Other observations

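In the T gate, used in the report as background for Cd74, H2-DMa stood at 70.7, 42.1, 75.3 and 41.8 CPM in Ad-Lib 1, 3, 5 and 7 and at 51.9, 51.8, 58.5 and 52.9 in TAN 2, 4, 6 and 8. After thinning, 5.71% to 7.04% of T gate cells had an H2-DMa UMI in Ad-Lib and 8.07% to 9.06% in TAN, against 0.303% to 0.834% of endothelial cells and 0.222% to 0.914% of progenitors. The groups thus overlapped for H2-DMa by CPM but not by thinned share. H2-Ob did not overlap in the T gate by either, at 1.67 to 7.53 CPM in Ad-Lib and 9.26 to 11.5 in TAN. Its thinned shares were 0.486% to 1.52% and 1.81% to 2.25%. The share of all genes without overlap in the T gate is not given here. B cell markers summed to 120.03 to 5323 CPM in the T gate of Ad-Lib and 141 to 224 CPM in that of TAN, and their part in these values was not tested.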
